A study of Homo sapiens with 8 samples.

Results

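The nuclear genes for the subunits of oxidative phosphorylation were followed in 786-O cells given PT2399. They were taken as the genes whose symbols begin with NDUFA, NDUFB, NDUFC, NDUFS, NDUFV, UQCR, COX4, COX5, COX6, COX7, COX8 or ATP5, together with SDHA to SDHD, CYC1 and CYCS, leaving out pseudogenes and assembly factors. The rule found 88 probe sets that each name 1 gene, for 81 of the 18417 genes measured. Of these, 73 passed the filter on low values, which kept 11050 genes in all, with a mean intensity limit of 118. They were 34 of 34 genes of complex I, 3 of 3 of complex II, 7 of 8 of complex III, 12 of 17 of complex IV, 16 of 18 of complex V and CYCS. The rule uses names alone, though it was proposed with earlier results of these data known.

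The respiratory chain passes electrons from NADH through complex I, or from succinate through complex II, to complex III, on to cytochrome c and then to oxygen at complex IV. Complexes I, III and IV pump protons across the inner mitochondrial membrane, and complex V, the ATP synthase, uses the gradient to make ATP. In clear cell renal carcinoma, loss of VHL stabilises HIF alpha subunits, and HIF activity is known for favouring glycolysis over mitochondrial respiration.

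786-O is an established line from a clear cell renal carcinoma and lacks working VHL. Genotype was taken from titles and characteristics, since the growth protocol given for all 8 samples speaks only of null cells. Cells labelled parental and cells labelled HIF2a null, in which HIF2a is missing by genotype, received DMSO or PT2399, an inhibitor that keeps HIF2a from its partner ARNT, at 2 uM for 24 h or 48 h. Each of the 8 combinations was read on 1 whole-transcript array, and the parental and null cells were run as independent experiments, so that genotype and experiment cannot be told apart. The labels do not say whether the null cells are 1 clone or whether arrays came from separate cultures. The values are RNA levels of whole cultures, in which fewer cells with a transcript and less of it per cell cannot be told apart.

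The labelled cell type was checked against its markers. All 11 measured renal carcinoma markers lay above the filter, among them PAX8 and VIM, and of 13 markers of other cell types only CD68 and MYH7 did. EPAS1, which encodes HIF2a, was at -0.97 (24 h) and -0.79 (48 h) on the log2 scale in null against parental DMSO cells. The labels do not place the edit within the gene, so this level checks the genotype only in part. The array of null cells with PT2399 at 48 h stood apart, with Pearson correlations of 0.777 to 0.831 with the other null arrays over the genes above the filter, where those 3 correlated at 0.940 to 0.983 with each other. The parental PT2399 array at 24 h stood apart to a smaller degree, at 0.950 to 0.963 against 0.985 to 0.989 among the other parental arrays, and its median intensity over all probe sets was 133.8 where the other arrays lay between 99.4 and 121.3. For that reason the 24 h and 48 h pairs are given separately throughout.

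Promoter sequence of 6 genes is shown as examples of the differences described further on. CYCS was lower and COX7B higher with PT2399 in both null pairs, NDUFA1 and NDUFA13 had the largest differences at 48 h in null cells, and in DMSO NDUFB7 stood well above and NDUFS4 well below its parental level in null cells. They were chosen after their values were seen. Each run is the 250 bases before the annotated start, 5′ to 3′ on the gene's strand, from RefSeq on GRCh38.p14. The regions are chr7:25125261-25125510 on the minus strand for CYCS, chrX:119871582-119871831 on the plus strand for NDUFA1, chr19:19515975-19516224 on the plus strand for NDUFA13, chr19:14572067-14572316 on the minus strand for NDUFB7, chr5:53560389-53560638 on the plus strand for NDUFS4 and chrX:77899218-77899467 on the plus strand for COX7B. Capitals mark 5 short motif cores, read on either strand: GCATGCG of NRF1, CCGGAAG of the ETS family, AAGATGG of YY1, and ACGTG and GCGTG of the hypoxia response element.
CYCS: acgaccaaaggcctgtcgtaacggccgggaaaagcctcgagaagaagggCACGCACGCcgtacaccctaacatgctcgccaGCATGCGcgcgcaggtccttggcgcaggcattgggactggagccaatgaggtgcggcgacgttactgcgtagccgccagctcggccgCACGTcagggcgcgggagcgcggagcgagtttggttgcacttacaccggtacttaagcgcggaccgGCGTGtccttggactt
NDUFA1: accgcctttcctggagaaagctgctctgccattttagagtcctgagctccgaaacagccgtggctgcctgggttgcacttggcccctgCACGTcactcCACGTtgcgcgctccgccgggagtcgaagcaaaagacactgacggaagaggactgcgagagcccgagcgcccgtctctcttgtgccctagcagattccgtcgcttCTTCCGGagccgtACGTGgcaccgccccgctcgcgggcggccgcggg
NDUFA13: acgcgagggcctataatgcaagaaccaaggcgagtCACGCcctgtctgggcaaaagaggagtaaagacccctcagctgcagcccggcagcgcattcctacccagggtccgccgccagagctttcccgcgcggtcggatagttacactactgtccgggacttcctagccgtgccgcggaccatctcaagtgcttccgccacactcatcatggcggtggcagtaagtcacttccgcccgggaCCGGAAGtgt
NDUFB7: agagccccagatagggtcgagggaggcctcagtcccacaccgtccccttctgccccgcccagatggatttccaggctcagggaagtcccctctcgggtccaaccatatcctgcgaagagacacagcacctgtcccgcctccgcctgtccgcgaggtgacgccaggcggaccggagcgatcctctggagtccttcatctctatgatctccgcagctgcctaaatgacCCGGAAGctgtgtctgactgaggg
NDUFS4: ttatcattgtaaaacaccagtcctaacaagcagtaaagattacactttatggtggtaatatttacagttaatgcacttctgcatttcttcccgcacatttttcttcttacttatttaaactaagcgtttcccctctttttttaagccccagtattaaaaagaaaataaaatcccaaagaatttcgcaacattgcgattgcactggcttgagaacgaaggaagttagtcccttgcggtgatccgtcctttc
COX7B: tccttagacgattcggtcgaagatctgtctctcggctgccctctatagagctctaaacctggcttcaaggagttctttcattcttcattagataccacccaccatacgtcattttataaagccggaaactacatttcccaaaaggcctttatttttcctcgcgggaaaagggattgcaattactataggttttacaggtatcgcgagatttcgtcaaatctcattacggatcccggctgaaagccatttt

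The CYCS run holds 1 NRF1 core, 1 ACGTG and 3 GCGTG, of which a pair overlaps by 1 base. The NDUFA1 run holds 1 ETS core and 3 ACGTG. In the NDUFA13 run there is 1 ETS core and 1 GCGTG, and in the NDUFB7 run 1 ETS core. The NDUFS4 and COX7B runs hold 0 of the 5 cores, though NDUFS4 has the YY1 core in the longer window described below. NRF1 and the ETS factor GABP are known as regulators of nuclear respiratory genes. In the RefSeq table, which runs from 250 bases before to 50 bases after each start, 68 members had an entry. The NRF1 core was in 20.6% of them against 4.74% of all 27305 genes with an entry, the ETS core in 29.4% against 12.2%, and the YY1 core in 17 of the 68 against 7.11%. ACGTG was in 26.5% against 24.9% and GCGTG in 51.5% against 40.6%. Unlike the other shares given here, these cover every gene with an entry and were not limited to the genes tested. The end of the NRF1 core can overlap GCGTG. These matches describe letters in a window and do not show that a factor binds there.

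The first comparison asked whether blocking HIF2a changed these genes in parental cells. The 73 genes differed little between PT2399 and DMSO. Their median log2 difference was 0.08 at 24 h, beside 0.02 over all genes tested, and 0.00 at 48 h, beside 0.00. The 24 h median depends on the scaling: with each array centred on its median it was -0.13, and all genes shifted alike to -0.19, and with quantile normalization it was 0.14 beside -0.01. The SD over the members was 0.19 at 24 h and 0.138 at 48 h, where over all genes it was 0.386 and 0.199. A difference smaller than 0.32 (log2) in both pairs was seen for 63 of the 73 genes, or 86.3%, and for 62.4% of all genes tested. In a limma model over the 8 arrays, which fits level, time and PT2399 within each genotype and leaves 2 residual degrees of freedom, the parental effects ran from -0.24 to 0.40 with a median of 0.03 (-0.07 with each array centred on its median, where all genes lay at -0.08). The median standard error (SE) was 0.33, which pools the spread of the null pairs, and 72 of 73 effects lay within 1 SE of 0. Over all genes tested the median SE was smaller, 0.27, and 9005 of 11050 effects lay within 1 SE of 0. In a limma fit on the parental arrays alone the median SE was 0.14, and 57 of 73 effects lay within 1 SE of 0. The same count over all genes was not taken for that fit. At an adjusted p under 0.05 limma called 0 of the 73 genes (0.0% of all genes tested), and at an unadjusted p under 0.05 it also called 0 (1.18% of all genes tested).

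**Figure D1:**
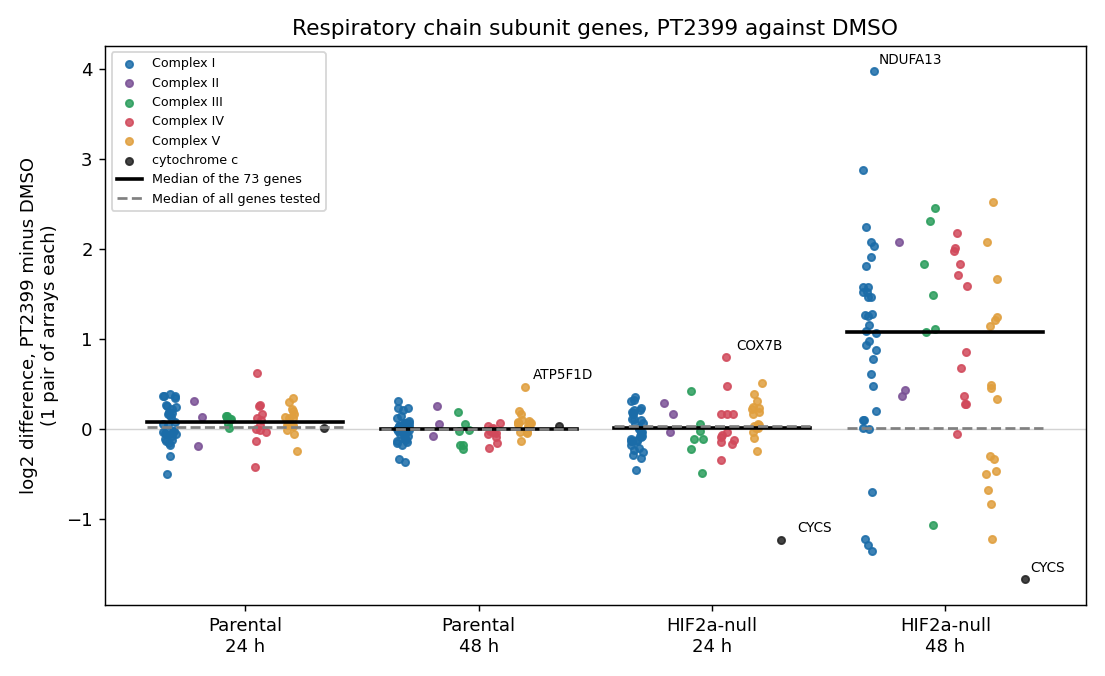
Log2 difference of PT2399 against DMSO (vertical axis) for the 73 genes above the filter in the 4 pairs of arrays, 1 point per gene, coloured by complex and spread sideways for legibility; solid lines are medians of the 73 genes and dashed lines medians of all 11050 genes tested. Both parental pairs lie close to 0, and in the HIF2a-null pair at 48 h the median of the 73 genes is 1.08 while that of all genes is 0.01.

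The plot of differences by pair shows the parental genes in a narrow band. Higher with PT2399 at both times were 24 genes, or 32.9% (30.7% of all genes tested), and lower at both times were 12, or 16.4% (27.1% of all genes tested). The other 37 had opposite directions at 24 h and 48 h. A difference of at least 0.32 (log2) the same way at both times was met by ATP5F1D alone on the higher side, 1.37% of the members (2.04% of all genes tested), and by 0 on the lower side (1.88% of all genes tested). With each array centred on its own median, ATP5F1D no longer met it. A difference of at least 1.5-fold in 1 parental pair was seen for COX6A2 at 24 h (8.38% of all genes tested higher, and 4.05% lower, where 0 members were), and at 48 h for 0 genes in either direction (0.606% of all genes tested higher, 0.724% lower).

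ATP5F1D encodes the delta subunit of the F1 part of ATP synthase. Its parental intensity was 813 (24 h) and 1123 (48 h) with DMSO, and 1030 and 1555 with PT2399. The null arrays gave 978 and 1102 with DMSO, and 822 and 1552 with PT2399. The parental levels with PT2399 lay above the DMSO level of the same time, but the groups overlapped, since the DMSO array at 48 h was above the PT2399 array at 24 h. The parental difference was 1.27-fold at 24 h and 1.38-fold at 48 h, a mean of 0.40 on the log2 scale (SE 0.27, limma adjusted p = 1.0). In a limma fit on the 4 parental arrays alone, with 1 residual degree of freedom, its SE was 0.13 and its unadjusted p 0.0258, with an adjusted p of 0.604. That fit called 0 members and 4 genes in all, and ATP5F1D was the 1 member at an unadjusted p under 0.05, where 7.83% of all genes were.

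Among the complex I genes, 34 in number, the parental median was 0.04 at 24 h and -0.01 at 48 h. NDUFA2, an accessory subunit, had the highest parental effect with 1 direction at both times, 0.29 (SE 0.45), with differences of 0.34 and 0.23. NDUFA3, another accessory subunit, followed at 0.25 (SE 0.36), and NDUFB3, of the membrane arm, at 0.23 (SE 0.39). At the other end were NDUFA9, which helps join the 2 arms of the complex, at -0.14 (SE 0.34), NDUFB9 at -0.11 (SE 0.41) and NDUFS7, which carries an iron-sulphur cluster, at -0.10 (SE 0.42). NDUFS3, a core subunit of the arm outside the membrane, had the lowest parental effect of all members, -0.24 (SE 0.32), but from -0.50 at 24 h and 0.03 at 48 h. In each of these the effect was smaller than its SE from the 8-array model.

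Complex II oxidises succinate, and its genes are also tumour suppressors. SDHA, the flavoprotein, read 1850 and 1694 with DMSO in parental cells and 1623 and 1599 with PT2399, an effect of -0.14 (SE 0.23). SDHD, a membrane anchor, read 734 and 756 with DMSO and 801 and 902 with PT2399. Its parental effect was 0.19 (SE 0.23). SDHC, the other anchor, had 2 probe sets that disagreed in the parental pair at 24 h, at 0.31 and -0.53, and the first, the brighter one, stood for the gene.

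For complex III, which hands electrons to cytochrome c, the parental median was 0.11 at 24 h, with 7 of 7 genes above 0 (52.7% of all genes tested). At 48 h it was -0.02, with 2 above 0 (51.0% of all genes tested). The 24 h values ran only from 0.01 to 0.14. Centring each array moved the 24 h median of all 73 members from 0.08 to -0.13, so the count above 0 depends on the scaling. CYC1, the cytochrome c1 of complex III, stood at 0.11 and -0.22. CYCS, the cytochrome c that carries electrons on to complex IV, stood at 0.01 and 0.03, a parental effect of 0.02 (SE 0.24).

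Complex IV has subunits with paralogous isoforms, and HIF is known for a switch between the COX4 isoforms. COX4I1, the general form, read 1411 and 1389 with DMSO in parental cells and 1403 and 1204 with PT2399, an effect of -0.11 (SE 0.45). COX4I2, the form linked to low oxygen, was below the filter. Its intensities were 106 and 96.7 with DMSO and 177 and 90.7 with PT2399 in parental cells, and between 84.0 and 169 in null cells. LONP1, the mitochondrial protease that degrades COX4I1 protein in hypoxia, differed by -0.03 and -0.09 in parental cells. Of the muscle isoforms, COX7A1 was below the filter, and COX6A2 was above it with a parental difference of 0.62 at 24 h and -0.16 at 48 h, an effect of 0.23 (SE 0.29). Their general counterparts differed less: COX6A1 stood at 0.12 and -0.02, and COX7A2 at 0.00 both times. COX6B2, COX7B2 and COX8C, other tissue-restricted isoforms, were also below the filter, as were UQCRB, ATP5MC3 and ATP5MGL. COX7B, a small structural subunit, stood at -0.42 and 0.06, an effect of -0.18 (SE 0.31).

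ATP synthase had a parental median of 0.09 at 24 h and 0.06 at 48 h over its 16 genes. Apart from ATP5F1D, ATP5IF1, which encodes the inhibitor that stops the enzyme from running backwards, had the highest parental effect with 1 direction, 0.19 (SE 0.33). ATP5MC1 and ATP5MC2, which encode the same membrane ring subunit, stood at 0.20 and 0.12 at 24 h and at -0.04 and -0.13 at 48 h. ATP5F1A and ATP5F1B, the alpha and beta subunits of the catalytic head, had effects of 0.12 (SE 0.24) and 0.01 (SE 0.25).

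Lists of other mitochondrial genes also had parental medians close to 0. At 24 h some spread more widely than the members and others as little or less. The SD over genes was then 0.302 for assembly factors, 0.363 for biogenesis regulators and 0.247 for mitochondrial ribosomal proteins. For the members it was 0.19 and for all genes 0.386. It was 0.15 for the tricarboxylic acid cycle and pyruvate dehydrogenase and 0.183 for the hypoxia-linked switches. Of lists outside mitochondria, proteasome subunits had 0.169 and cytosolic ribosomal proteins 0.22. A narrow spread was thus not particular to the members. In the parental comparison limma called 0 genes in each list at an adjusted p under 0.05 (0.0% of all genes tested). At an unadjusted p under 0.05 it also called 0 (1.18%). In each list 0 differed by at least 0.32 (log2) the same way at both times (2.04% of all genes tested higher, 1.88% lower). The lists held 46 assembly factors above the filter of 54 listed, 14 of 15 regulators of mitochondrial biogenesis and 73 of 73 mitochondrial ribosomal proteins. Also above it were 19 of 21 genes of the tricarboxylic acid cycle and pyruvate dehydrogenase and 7 of 9 hypoxia-linked switches of respiration. PDK1, the kinase that closes pyruvate dehydrogenase, stood at -0.40 and -0.09 (effect -0.24, SE 0.25). PPARGC1B, a coactivator of mitochondrial genes, stood at 0.45 and 0.28 (0.36, SE 0.26), and COA8, an assembly factor of complex IV, at -0.48 and -0.28 (-0.38, SE 0.27). Of the 13 subunits encoded in mitochondrial DNA, 0 were measured by a probe set naming 1 gene, and NDUFA4, NDUFA4L2 and SDHB were not analysed here.

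The second comparison gave PT2399 to null cells, which lack the inhibitor's target by their label. At 24 h the 73 genes had a median difference of 0.01, beside 0.03 over all genes, and an SD of 0.273 over the members, beside 0.24. Higher with PT2399 at both null times were 27 genes, or 37.0% (27.0% of all genes tested), and lower at both were ATP5F1C, CYCS, NDUFA5 and NDUFB6, or 5.48% (19.5% of all genes tested). The 2 genes past 1.5-fold at 24 h were COX7B, higher (0.796% of all genes tested), and CYCS, lower (1.29% of all genes tested). At 48 h the median was 1.08 beside 0.01 over all genes. At least 1.5-fold higher at 48 h were 45 genes, or 61.6% (23.3% of all genes tested), and at least 1.5-fold lower were 9, or 12.3% (27.7% of all genes tested). Over both times the limma effect had a median of 0.52 (all genes 0.03) with a median SE of 0.33, and 0 members were called (0.0% of all genes tested). At an unadjusted p under 0.05, 4 members passed (4.35% of all genes tested): ATP5MC2, COX7B and NDUFB8 higher and CYCS lower.

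The median at 48 h was 1.02 with centred arrays and 1.15 with quantile normalization, and it rests on 1 treated array. The null PT2399 array at 48 h read above all 3 other null arrays for 58 of the 73 genes, or 79.5% (36.8% of all genes tested), and below all 3 for 12, or 16.4% (40.3% of all genes tested). The same array is the one that stood apart over all genes, and 28.2% of all genes tested were within 0.32 (log2) of 0 in that pair, against 92.4% in the parental pair of the same time. The part of that array in the result was not tested beyond leaving the pair out, which leaves the 24 h median of 0.01.

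CYCS differed in both null pairs. It read 1210 and 1247 in null DMSO cells and 515 and 393 in null cells with PT2399, against 1367 and 1404 in parental DMSO cells and 1372 and 1437 in parental cells with PT2399. The 2 null PT2399 arrays were below all 6 other arrays, and the 6 others spanned a narrow range. The fold was 2.35 at 24 h and 3.17 at 48 h, both lower with PT2399, a mean of -1.45 on the log2 scale (SE 0.24, limma unadjusted p = 0.00112, adjusted p = 0.608). Parental minus null, the effect differed by 1.47 (SE 0.34, limma unadjusted p = 0.0056, adjusted p = 0.945). CYCS was the 1 member lower by at least 0.32 (log2) at both null times (2.69% of all genes tested). CYC1, the other cytochrome of this step, stood at -0.11 and 1.08 in the same pairs.

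COX7B was higher with PT2399 in both null pairs. Its intensity was 208 and 359 with DMSO and 363 and 1170 with PT2399, and in parental cells 457 and 401 with DMSO and 342 and 417 with PT2399. Both null PT2399 arrays were above both null DMSO arrays, but PT2399 at 24 h only just exceeded DMSO at 48 h. Its null difference was 0.80 at 24 h and 1.71 at 48 h, a mean of 2.39-fold (SE of the log2 mean 0.31, limma unadjusted p = 0.00719, adjusted p = 0.608). Higher by at least 0.32 (log2) at both null times were COX7B, NDUFS4 (0.35 and 0.48) and ATP5MK (0.51 and 0.33), 4.11% of the members (2.47% of all genes tested). NDUFS4 read below the filter limit of 118 on 3 of its 4 null arrays, so its null differences lie at the low end of the scale. A second, dimmer probe set of ATP5MK stood at 0.10 and 0.41. That of NDUFS4 stood at 0.27 and 0.28, with a mean log2 of 4.78, below the filter limit.

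**Figure D2:**
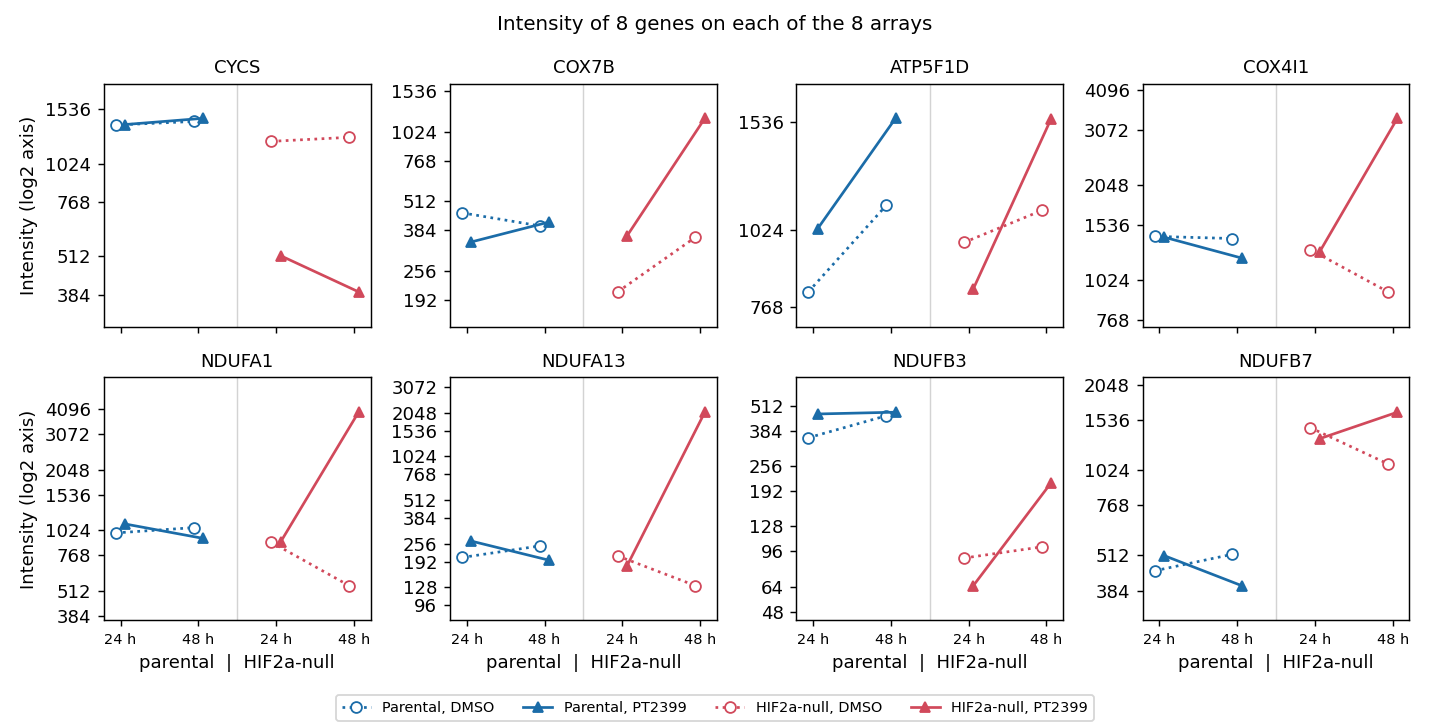
Intensity (log2 axis, separate range per panel) of 8 genes on each of the 8 arrays, parental on the left and HIF2a-null on the right of each panel, open circles and dotted lines for DMSO, filled triangles and solid lines for PT2399, 1 array per point with no error. CYCS is low on both null PT2399 arrays, at 515 and 393, while NDUFA13 reaches 2059 only on the null PT2399 array at 48 h.

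The plot of 8 genes array by array sets CYCS beside genes that stood high at 48 h alone. NDUFA13, a complex I subunit also known as the cell death regulator GRIM-19, read 206, 247, 266 and 197 in parental cells (DMSO at 24 h and 48 h, then PT2399), and 211, 131, 180 and 2059 in null cells in the same order. Only the last array was high, 15.67-fold above its DMSO partner, where at 24 h the difference was -0.23. That DMSO partner was itself low, at -0.68 against DMSO at 24 h, which adds to the fold. NDUFA1, an X-linked complex I subunit needed for assembly of the membrane arm, read 891, 542, 897 and 3963 in null cells, and between 932 and 1099 in parental cells. The DMSO array of NDUFA1 at 48 h was also low, at -0.72 against 24 h, so the difference of 2.87 holds a low control as well as a high treated array. ATP5ME stood at 2.52 at 48 h and 0.01 at 24 h, UQCRC1, a core protein of complex III, at 2.45 and -0.22, UQCRH at 2.31 and -0.02, NDUFB11 at 2.24 and -0.26, and COX7A2 at 2.18 and -0.15. From 24 h to 48 h in null DMSO cells UQCRC1 stood at -0.69, NDUFB11 at -0.58, ATP5ME at -0.54, COX7A2 at -0.38 and UQCRH at 0.0.

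By complex, the null median at 48 h was 1.12 for complex I with 30 of 34 genes higher, 0.43 for complex II with 3 of 3, 1.49 for complex III with 6 of 7, 1.22 for complex IV with 11 of 12, and 0.39 for complex V with 9 of 16, where 50.7% of all genes tested were higher. The brighter of 2 SDHD probe sets gave the complex II median, and the dimmer one stood at 1.30. Within complex V, lower at 48 h were ATP5F1A (-0.30), ATP5F1B (-0.33) and ATP5F1C (-0.83) of the F1 part. Also lower were ATP5PB (-0.47), ATP5PF (-1.22) and ATP5PO (-0.50) of the stalk that holds the F1 part, and ATP5MC1 (-0.68) of the ring. Higher were ATP5F1D (0.49) of the F1 part, ATP5PD (0.45) of the stalk and the inhibitor ATP5IF1 (1.14). So were the membrane subunits ATP5ME (2.52), ATP5MJ (2.08), ATP5MG (1.24), ATP5MF (1.21) and ATP5MK (0.33). ATP5MC2 (1.66), which encodes the same mature ring protein as ATP5MC1, was higher too. In complex I the 4 lower genes were NDUFA12 (-1.36), NDUFA5 (-1.29), NDUFB5 (-1.22) and NDUFB6 (-0.70), and in complex III UQCRC2 stood at -1.07 where its partner core protein UQCRC1 was at 2.45. At 24 h none of these reached 1.5-fold in either direction. Across genes, the 48 h difference in null cells had a Spearman correlation of -0.30 with the RefSeq gene span over the 73 members and -0.31 over 11043 genes tested. In the parental pair at 24 h it was -0.43 over the members and -0.26 over all genes, each a description of genes read on the same 2 arrays.

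**Figure D3:**
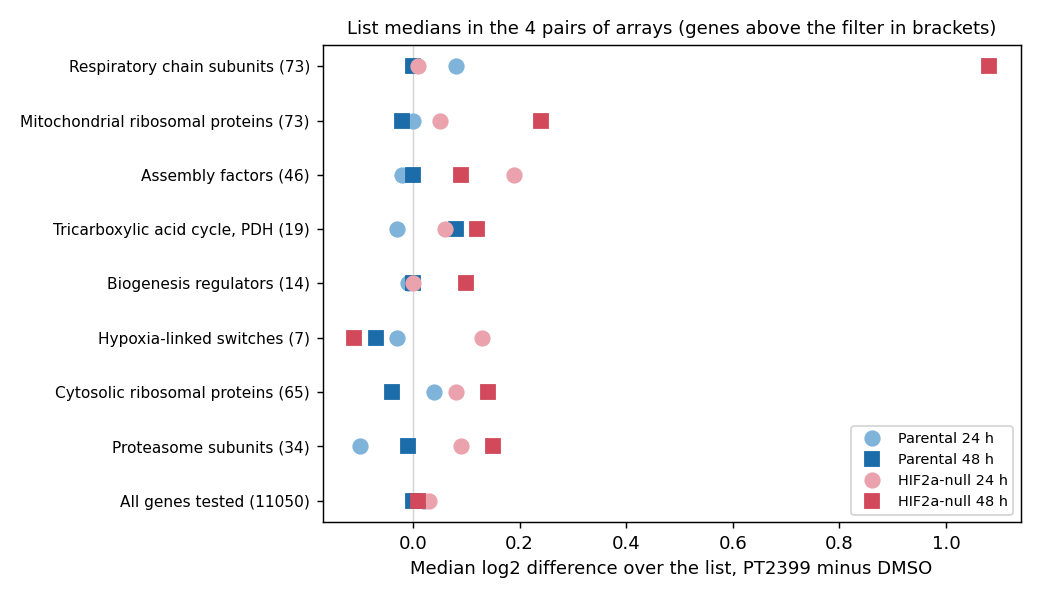
Median log2 difference, PT2399 minus DMSO (horizontal axis), of the respiratory chain subunits, 7 other gene lists and all genes tested, with 1 symbol for each of the 4 pairs of arrays; numbers in brackets are the genes above the filter. The respiratory chain subunits reach 1.08 in the HIF2a-null pair at 48 h, and the other lists lie between -0.11 and 0.24 in that pair.

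The plot of list medians places the subunits beside other abundant protein complexes. In the null pair at 48 h the median was 0.24 for 73 mitochondrial ribosomal proteins, 0.14 for 65 cytosolic ribosomal proteins and 0.15 for 34 proteasome subunits. It was 0.12 for the tricarboxylic acid cycle, 0.09 for assembly factors and 0.10 for biogenesis regulators. Of the hypoxia-linked switches HIGD1A, which associates with the respiratory chain, stood at -1.96, BNIP3L, a mitophagy receptor, at -1.22, and ISCU, the iron-sulphur scaffold, at 1.12. The difference between the list medians was not tested.

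Parental minus null, the PT2399 effect of the 73 genes had a median of -0.48 (all genes 0.04) and a median SE of 0.47. Limma called 0 of them (0.0% of all genes tested), with a lowest adjusted p of 0.945, and 2 passed an unadjusted p under 0.05, COX7B and CYCS (1.74% of all genes tested).

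The third set of values compared the genotypes in DMSO, with no test because they come from independent experiments. The members were lower in null cells, at a median of -0.20 at 24 h, the same as over all genes (-0.20), and of -0.39 at 48 h, beside -0.13. Quantile normalization gave -0.04 (all genes -0.06) and -0.29 (all genes 0.00), and centring each array gave -0.20 (-0.21) and -0.21 (0.04). Lower at both times were 42 genes, or 57.5% (45.8% of all genes tested), and higher at both 6, or 8.22% (21.8% of all genes tested). Lower by at least 0.32 (log2) at both times were 19 genes, or 26.0% (22.4% of all genes tested). Higher by as much at both times was NDUFB7, or 1.37% (9.79% of all genes tested). With quantile normalization 12 genes were lower by this measure. Of the 19 genes, 13 belonged to complex I, which holds 34 of the 73 members. The 3 null arrays without PT2399 at 48 h were all below all 4 parental arrays for 35 genes, or 47.9% (31.4% of all genes tested), and all above for NDUFB7 and NDUFV1, or 2.74% (12.9% of all genes tested).

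**Figure D4:**
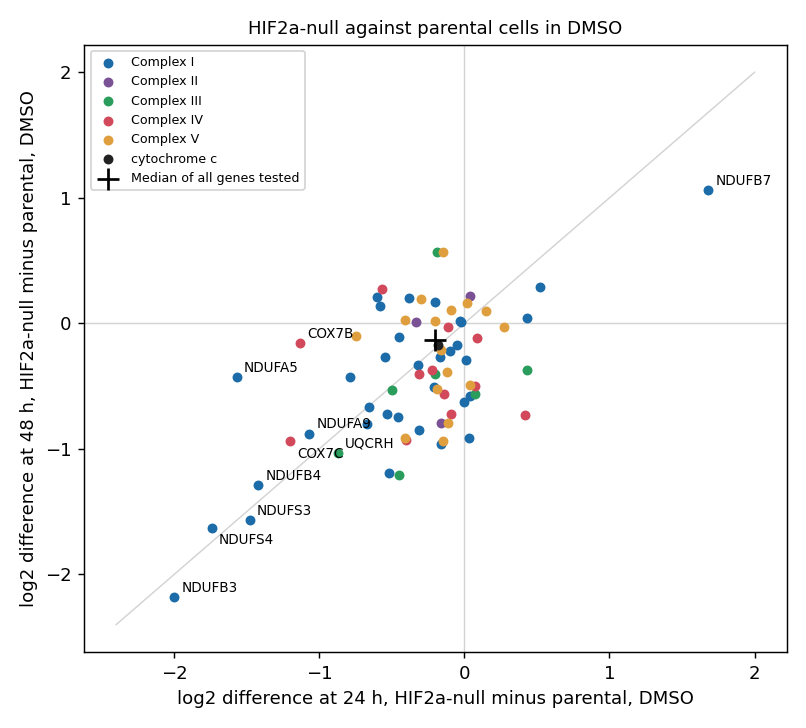
Log2 difference between HIF2a-null and parental cells in DMSO at 24 h (horizontal axis) and 48 h (vertical axis) for the 73 genes above the filter, 1 point per gene, coloured by complex; the cross is the median of all genes tested and the diagonal marks equal differences. NDUFB3 and NDUFS4 lie lowest at both times, NDUFA5 is next at 24 h (-1.57) but not at 48 h (-0.43), and NDUFB7 is the highest at both.

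NDUFB3 was the lowest in the plot of genotype differences. It read 355 and 457 in parental DMSO cells, 467 and 476 in parental cells with PT2399, 89.0 and 101 in null DMSO cells, and 64.8 and 211 in null cells with PT2399. All 4 null arrays were below all 4 parental arrays, and 3 of them were below the filter limit of 118, so that its differences in DMSO, 3.99-fold lower at 24 h and 4.52-fold lower at 48 h, lie close to the low end of the scale. NDUFS4, an accessory subunit whose loss causes Leigh syndrome, read 280, 291, 268 and 297 on the parental arrays and 83.7, 94.1, 107 and 131 on the null arrays (DMSO at 24 h and 48 h, then PT2399). Its groups did not overlap either, with differences of -1.74 and -1.63, and 3 null arrays were below the limit. NDUFS3 stood at -1.48 and -1.57, NDUFB4 at -1.42 and -1.29, COX7C, a small subunit of complex IV, at -1.20 and -0.94, NDUFA9 at -1.07 and -0.88 and UQCRH, the hinge protein of complex III, at -0.87 and -1.03. NDUFA5 was lower at 24 h (-1.57) more than at 48 h (-0.43).

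NDUFB7, an accessory subunit on the intermembrane space side of complex I, was higher in null cells. It read 452, 516, 511 and 400 on the parental arrays and 1443, 1075, 1319 and 1636 on the null arrays (DMSO at 24 h and 48 h, then PT2399), with no overlap. The differences in DMSO were 3.2-fold at 24 h and 2.08-fold at 48 h. NDUFV1, which binds NADH, followed at 0.52 and 0.29.

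Time was compared in DMSO cells, with no test. From 24 h to 48 h in DMSO their median difference was 0.07 in parental cells, with 0 genes past 1.5-fold in either direction (0.588% of all genes tested higher, 0.932% lower). In null cells it was -0.02. There 5 genes were at least 1.5-fold higher at 48 h (10.0% of all genes tested), namely COX6C, COX7B, NDUFA12, NDUFA5 and UQCRC2, and 6 lower (12.3% of all genes tested), namely ATP5MC2, COX6A2, NDUFA1, NDUFA13, SDHC and UQCRC1.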

How the data were processed

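RNA for the 8 arrays was labelled with an Affymetrix whole-transcript kit, per the labels' protocols. The deposited table gives a linear intensity for each of 33252 probe sets on each array. Background correction, probe summary, array scaling and tools were not given in the sources used here. Log2 of the intensity was taken, with no pseudocount. Gene names came from the platform annotation (19460 probe sets with 1 gene, 19429 of them matched to the RefSeq table of GRCh38.p14 by Entrez identifier). Probe sets with several genes (1754) or unnamed here (12038) were not used. Where a gene had several probe sets, the one brightest on average was taken. The filter kept genes at or above percentile 40 of that mean. Many of these genes have near-identical processed pseudogenes, so that their probes may read both.

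Effects were fitted with limma 3.58.1 (lmFit, eBayes) in R 4.3.3, with Benjamini-Hochberg adjustment over 11050 genes. The script was run on simulated data with noise alike on all arrays and planted changes larger than the parental effects of the members. Its power at effects of their size was not tested. With 1 array per combination, the 24 h and 48 h pairs are the repeats of a treatment effect. P-values measure the spread between those pairs, which may be technical. Counts past 0.32 on the log2 scale (the smaller fold limit) at both times, or 1.5-fold in 1 pair, carry no p-value. Levels of different genes were not compared. Members and lists were chosen with earlier results of these data known. Genes named were fixed isoforms, those with the largest effects of 1 direction in each genotype, those past 1.5-fold in the other pairs, the extremes in DMSO, and the largest at 48 h in null cells. NDUFS3 in parental cells, the values within complex V, the lower genes of complexes I and III, the hypoxia-linked genes at 48 h in null cells and the motif cores were chosen after values were seen.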

Additional observations from a re-analysis of the deposited data

Results flagged for a closer look

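In 5 genes both parental pairs went one way with PT2399 and both null pairs the other, 6.85% of the members (12.3% of all genes tested). The value given is the parental minus the null effect in log2 units. For CYCS it was 1.47, with parental pairs of 0.01 and 0.03 and null pairs of -1.23 and -1.67. For ATP5F1C, the gamma subunit that turns inside ATP synthase, it was 0.48. For NDUFA9 of complex I it was -0.97, for NDUFV3, a complex I accessory subunit, -0.52, and for SDHA of complex II -0.40. The difference passed the adjusted threshold of limma in 0 of the 5 genes. CYCS alone of the 5 was at an unadjusted p under 0.05 (limma unadjusted p = 0.0056). The parental pairs of CYCS and of ATP5F1C (0.03 and 0.07) are so close to 0 that their direction can depend on the scaling. The parental effect of CYCS turned to -0.08 with each array centred on its median. That centring moved the parental 24 h median of all genes from 0.02 to -0.19, a larger step than the 24 h difference of ATP5F1C. At 24 h ATP5F1C in null cells (-0.03) and NDUFV3 in parental cells (-0.02) were also close to 0.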

How the results depend on the processing

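With each array centred on its median, the parental median of the 73 genes moved from 0.03 to -0.07 and that of all genes from 0.02 to -0.08, CYCS in parental cells turned to -0.08, and 0 genes were higher by at least 0.32 (log2) at both parental times. That count was 2 without a filter and 2 with the filter at percentile 20. Quantile normalization left 12 genes lower by that much at both times in DMSO, null against parental. The cause of these moves was not tested. Leaving out each pair of 1 genotype and time in turn gave a null median of 0.01 to 1.08, a parental median of 0.00 to 0.08 and a difference of -1.01 to 0.04. The count of members called by limma then ran from 0 to 53 in null cells and from 0 to 47 for the difference. The upper ends came without the null 24 h arrays, where 5137 and 3477 of all genes were called. There the null effect is the 48 h pair alone, each array assumed to vary like the parental ones. Leaving out a pair leaves the other pair, and 37 of the 73 members had opposite parental directions at the 2 times. Of the effects recomputed for named genes, those that changed sign with a pair left out were NDUFS3 in parental cells (-0.50 to 0.03), COX7B in parental cells (-0.42 to 0.06), COX6A2 in parental cells (-0.16 to 0.62) and NDUFA13 in null cells (-0.23 to 3.97). Of the alternative values for named genes, 380 kept direction and side of the threshold, 16 became called without the null 24 h arrays, and 5 changed sign. The model already compares arrays of the same time, and no replicate block could be added because each group holds 1 array. In parental cells the members had a median SE of 0.33 in the model over all arrays, which pools the spread of the null pairs. It was 0.14 in the fit on the parental arrays alone. How far the number of arrays limits the precision was not tested.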
